A study of Homo sapiens with 8 samples.

Results

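Heme is made in 8 enzymatic steps and is broken down by oxidation to biliverdin, which biliverdin reductases turn into bilirubin. The genes described here are 9 protein-coding genes of this route, taken by symbol from the 60230 genes of the count table: ALAS1, ALAD, UROS, UROD, CPOX, PPOX and FECH, which encode 7 of the 8 synthesis enzymes, and the biliverdin reductases BLVRA and BLVRB. The enzyme of step 3 is not analysed here. RNA was sequenced from HepG2 cells, a human hepatoma line, that overexpress the cytochrome P450 monooxygenase CYP2C19, and the series asks whether plastic-related compounds are toxic to such cells. Cells were exposed for 24 h to compound 4, compound 5 or compound 6, with 0.2% DMSO as the control, and each of the 4 groups had 2 libraries, labelled day 1 and day 2 and called replicates 1 and 2 here. All groups carry the CYP2C19 construct and were kept under blasticidin selection, so no library shows the parental line. Each compound was given at its own half-inhibitory concentration, so the molar doses were set separately for each compound. All 3 compounds are phenolic antioxidants of plastics with a pair of linked phenol rings. Compounds 4 and 6 have a methylene bridge and a methyl group on each ring, and differ in the tert-butyl group of compound 4 and the cyclohexyl group of compound 6 beside each hydroxyl. Compound 5 has only tert-butyl groups on its rings, and its bridge carries an additional methyl group.

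In the liver, heme synthesis is set mainly by ALAS1, which joins glycine and succinyl-CoA in the mitochondrion to make aminolevulinic acid. ALAD, UROS and UROD then work in the cytosol, and CPOX, PPOX and FECH complete heme in the mitochondrion. Much of hepatic heme goes into cytochromes P450, and heme lowers ALAS1 at the levels of transcription, mRNA and enzyme. Heme oxygenases HMOX1 and HMOX2 open the ring to biliverdin, and BLVRA and BLVRB reduce biliverdin isomers to bilirubin.

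The libraries held 9791659 to 17814595 counts, and 13400 genes passed the filter on low counts, all 9 heme genes among them. Their counts ran from 90 for PPOX to 1545 for UROD in a single library, so PPOX and BLVRB were measured with the least precision. Levels are given in CPM, the count of a gene relative to the total of its library after scaling by the trimmed mean of M-values. A gene was called changed at a Benjamini-Hochberg adjusted p under 0.05 in the quasi-likelihood test of edgeR, fitted to all 13400 genes. The labels give no separate cultures beyond the day, so the p-values measure the spread between these libraries. The label of a liver line was met by the liver markers, of which 14 of 15 exceeded 10 CPM in all libraries. The summed liver markers were 57065 to 61521 CPM with DMSO and 39862 to 48568 with compound 4. They were 49939 to 50792 with compound 5 and 43273 to 49908 with compound 6. Of the 15 markers, those higher than DMSO numbered 3 with compound 4, 6 with compound 5 and 2 with compound 6. In edgeR, 6 were called lower with compound 4, 1 higher with compound 5 and 0 with compound 6. The shares of all genes called in edgeR were 9.51%, 8.3% and 0.575%. At an unadjusted p under 0.05 in edgeR there were 10, 7 and 8 of the 15 markers. The DESeq2 Wald test called 7, 5 and 6 of them, and edgeR with a replicate block called 6, 4 and 2. The part of the shift in the sum in the results below was not tested. In bulk RNA, fewer cells of a type and less RNA per cell cannot be told apart. Of 13 erythroid markers, which matter because red cell precursors make heme through ALAS2, 6 including ALAS2 were at 0 in all libraries, and the list summed to 3.79 to 9.43 CPM. Of 8 leukocyte and Kupffer cell markers, 4 including PTPRC and CD163 were at 0 in all libraries, while LYZ made up most of their sum. That sum was 1859 to 2194 CPM with DMSO and 1423 to 1874 with compound 4. With compound 5 it was 1625 to 1783 and with compound 6 it was 1604 to 1899. Of the 4 tested genes of this list, 2 were higher than DMSO with each compound. CD68 of that list, a lysosomal protein also made outside macrophages, read 24.7 and 20.1 CPM with DMSO, 39.3 and 38.6 with compound 4, 25.9 and 20.03 with compound 5 and 30.7 and 29.4 with compound 6. It rose by 0.80 ± 0.16 on the log2 scale with compound 4 (adjusted p = 0.016), a call lost on leaving out DMSO replicate 2 (0.17) or either library of compound 4 (0.051 and 0.086), and its part in the results for that compound was not tested. The 7 endothelial markers summed to 0.91 to 2.18 CPM. Of 8 fibroblast and stellate cell markers, 4 were at 0, and nearly all of the sum came from PDGFRB and ACTA2. The sum was 17.7 to 23.4 CPM with DMSO and 34.2 to 34.3 with compound 4. It was 14.97 to 17.3 with compound 5 and 22.5 to 26.9 with compound 6. These 2 genes moved in opposite directions with each compound, 1 higher and 1 lower. In edgeR, PDGFRB was called higher with compound 4 and ACTA2 lower with compound 5.

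CYP2C19, the overexpressed gene, read 27.7 and 16.4 CPM in the DMSO libraries, 31.4 and 44.3 with compound 4, 52.8 and 37.96 with compound 5 and 23.9 and 21.2 with compound 6. It was higher than DMSO in both libraries with compounds 4 and 5 and between the DMSO libraries with compound 6. The log2-fold change was 1.05 ± 0.26 (SE) for compound 5 (adjusted p = 0.040), 0.79 ± 0.26 for compound 4 (adjusted p = 0.086) and 0.04 ± 0.27 for compound 6 (adjusted p = 0.95). The call for compound 5 was lost without DMSO replicate 1 (adjusted p = 0.062), DMSO replicate 2 (0.23) or compound 5 replicate 1 (0.22), with upper-quartile factors (0.052) and when only the compared libraries were fitted (0.061). For compound 4 the DESeq2 Wald test (0.026) and the fit without a filter on low counts (7.2e-05) passed the threshold. CYP2C19 has close relatives in the CYP2C family, among which reads could be split, and the construct and the native gene are not told apart in these counts.

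Promoter sequences are shown for BLVRA, BLVRB and ALAS1. BLVRA was the only gene of the 9 to be called in the edgeR fit described above. That call was with compound 4 and made 11.1% of the 9 genes, beside 9.51% of all genes. BLVRB is its partner in the same reaction, and ALAS1 controls the pathway. RefSeq (GRCh38.p14) gave a promoter window, 250 bases before to 50 after the start, for 8 of the 9 genes. The 250 bases before the start are printed 5′ to 3′ on the strand of the gene, from chr7:43758430-43758679 (plus strand), chr19:40465746-40465995 (minus strand) and chr3:52197833-52198082 (plus strand), with the letters of CCAAT boxes and TATA boxes, read on either strand, in capitals.
BLVRA: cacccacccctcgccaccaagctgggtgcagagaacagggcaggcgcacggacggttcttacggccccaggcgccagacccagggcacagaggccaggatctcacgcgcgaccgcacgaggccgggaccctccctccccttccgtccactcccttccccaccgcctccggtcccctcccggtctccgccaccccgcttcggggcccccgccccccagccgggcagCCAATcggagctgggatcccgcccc
BLVRB: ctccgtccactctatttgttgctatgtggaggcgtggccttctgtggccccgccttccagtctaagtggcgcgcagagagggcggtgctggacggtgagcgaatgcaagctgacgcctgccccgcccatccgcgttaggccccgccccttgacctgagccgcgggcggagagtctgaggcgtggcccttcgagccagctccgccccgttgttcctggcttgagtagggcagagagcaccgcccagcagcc
ALAS1: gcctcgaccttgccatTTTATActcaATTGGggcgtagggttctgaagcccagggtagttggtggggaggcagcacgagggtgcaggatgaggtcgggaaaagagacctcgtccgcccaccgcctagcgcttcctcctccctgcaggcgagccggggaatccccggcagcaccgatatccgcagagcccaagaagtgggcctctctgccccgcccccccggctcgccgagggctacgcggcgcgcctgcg

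ALAD and PPOX have a second window in the table, and the counts here use the first window of each gene. The whole 300-base windows were searched on both strands for 6 short motifs, and a match is a description of letters only. A CCAAT box (CCAAT) lay in the windows of ALAS1, ALAD, PPOX and BLVRA, against 35.7% of the 27305 promoters in the table, and the BLVRA copy began at position -25 from the start. A GC box core (CCGCCC) was present in the first window of 7 of the 8 genes, PPOX being the exception with a copy in its second window only, and in 44.6% of all promoters, and BLVRB held 6 copies. ALAS1 alone of the 8 had the core site of the respiratory factor NRF1 (GCGCATGC, 3.27% of all promoters), which lay after the start in overlapping copies on both strands, and a TATA box (TATAAA, 12.0%), which overlapped no other motif. FECH alone had the core of the antioxidant response element (TGACNNNGC, 13.6%). The E-box CACGTG, found in 7.43% of all promoters, was in none of the 8 windows.

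Per kilobase of principal transcript, UROD and BLVRA were the most abundant of the 9 mRNAs and PPOX the least, in each of the 8 libraries. In the DMSO libraries UROD stood at 62.4 and 69.6 CPM per kb and BLVRA at 51.3 and 47.6. They were followed by CPOX at 23.9 and 31.9, ALAS1 at 23.7 and 22.8, UROS at 17.6 and 20.6 and BLVRB at 13.5 and 14.1 CPM per kb. ALAD stood at 10.0 and 8.87, FECH at 7.93 and 6.85 and PPOX at 6.48 and 4.33 CPM per kb. No neighbours in this order overlapped, but CPOX and ALAS1 differed by less than the SD of CPOX, which was 5.64 CPM per kb (n = 2).

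**Figure D1:**
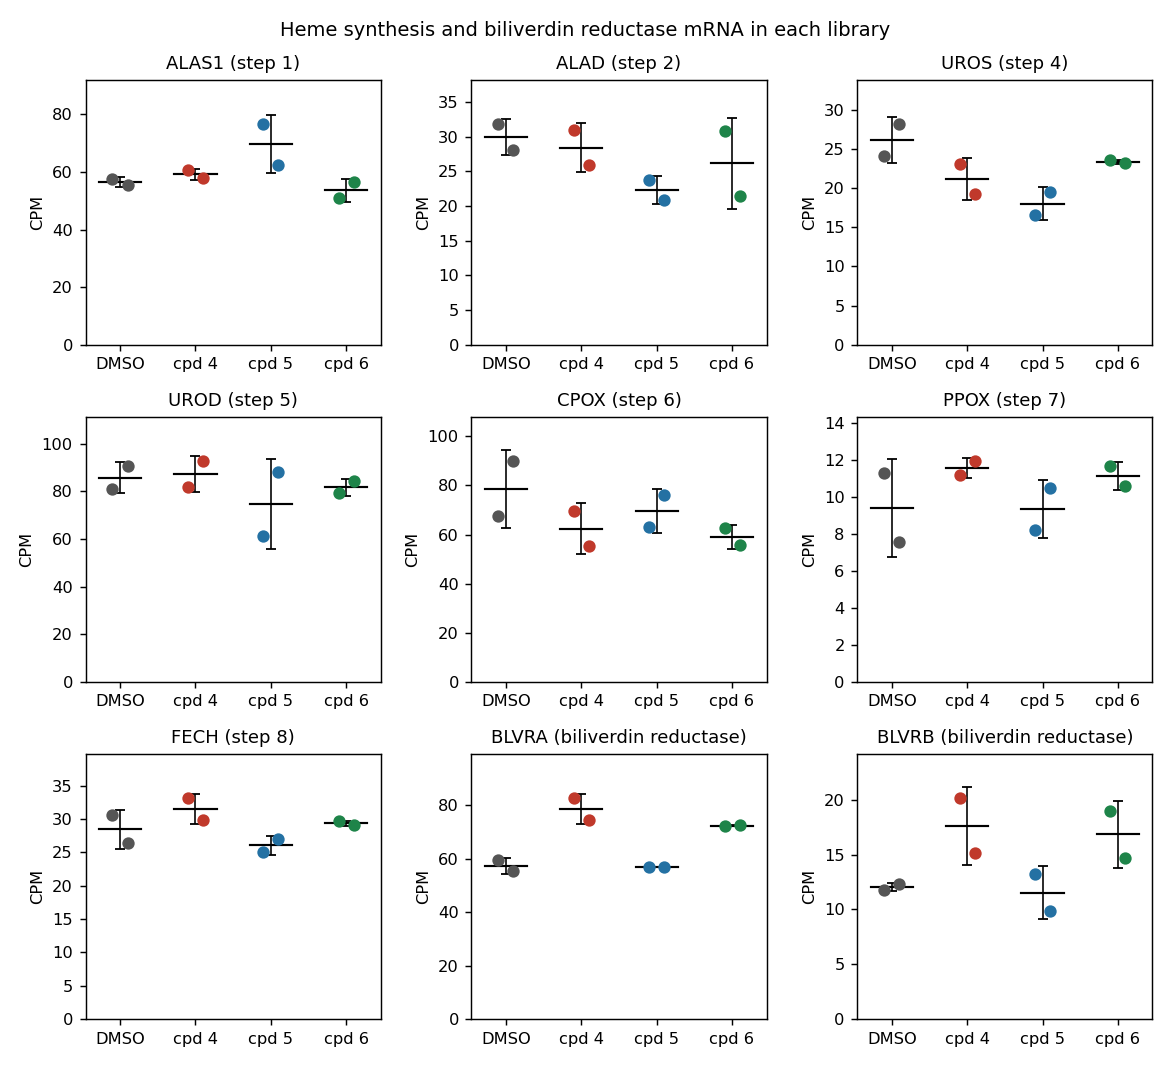
Levels of the 9 heme genes in CPM (vertical axes, each starting at 0) in the libraries of the DMSO, compound 4, compound 5 and compound 6 groups. Points are libraries, replicate 1 on the left and replicate 2 on the right, lines are group means and bars are SD (n = 2). BLVRA is higher in the compound 4 and compound 6 libraries (72.4 to 82.8 CPM) than in those of DMSO and compound 5 (55.3 to 59.5 CPM).

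Across the 9 genes, 1 was called with compound 4, where 9.51% of all tested genes were called. None was called with compound 5, where the share of all genes was 8.3%, or with compound 6, where it was 0.575%. At an unadjusted p under 0.05 in edgeR there were 2, 3 and 3 of the 9 genes, and the DESeq2 Wald test called 1, 0 and 0. The mean of the 3 compounds against DMSO called none of the 9, against 10.9% of all genes, with 3 at an unadjusted p under 0.05 and 0 called by DESeq2. The median log2-fold change of the 9 genes was 0.07 for compound 4, -0.13 for compound 5 and -0.07 for compound 6, beside 0.01, 0.00 and 0.02 over all tested genes. Their median absolute log2-fold change was 0.31, 0.18 and 0.20, beside 0.25, 0.26 and 0.21 over all genes. The 3 comparisons share their DMSO libraries.

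Groups of 2 libraries did not overlap for 4 of the 9 genes with compound 4, against 58.4% of all genes. The corresponding counts were 3 with compound 5, against 59.5%, and 4 with compound 6, against 55.4%. UROS was the 1 gene for which all 6 treated libraries lay on the same side of both DMSO libraries, against 26.1% of all genes.

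ALAS1 (chromosome 3, GRCh38 position 52198086 to 52214327, plus strand) encodes the rate-limiting enzyme and was measured with 519 to 1100 counts per library. It read 57.7 and 55.4 CPM with DMSO, 60.6 and 57.8 with compound 4, 76.7 and 62.6 with compound 5 and 50.9 and 56.6 with compound 6. The compound 5 libraries were the highest of the 8, compound 4 lay just above DMSO and compound 6 overlapped it. For compound 5 the log2-fold change was 0.30 (95% interval 0.02 to 0.58, adjusted p = 0.15). The other values were 0.07 ± 0.13 (SE) for compound 4 (adjusted p = 0.77) and -0.07 ± 0.13 for compound 6 (adjusted p = 0.80). None passed the threshold, and leaving out libraries moved the compound 5 value between 0.14 and 0.45, with adjusted p of 0.050 to 0.62.

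ALAD (chromosome 9, 113386317 to 113401333, minus strand) joins aminolevulinic acid molecules into porphobilinogen. Its levels were 31.9 and 28.1 CPM with DMSO, 31.0 and 25.9 with compound 4, 23.8 and 20.9 with compound 5 and 30.8 and 21.5 with compound 6. Both compound 5 libraries lay below DMSO, and the libraries of compounds 4 and 6 reached into its range. The compound 5 difference was -0.43 on the log2 scale (95% interval -0.83 to -0.02, adjusted p = 0.16), against -0.08 ± 0.18 for compound 4 (adjusted p = 0.81) and -0.20 ± 0.18 for compound 6 (adjusted p = 0.60).

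UROS (chromosome 10, 125784980 to 125823285, minus strand) closes the porphyrin ring in the form that leads to heme. The DMSO libraries read 24.1 and 28.2 CPM, compound 4 read 23.1 and 19.2, compound 5 read 16.5 and 19.5 and compound 6 read 23.5 and 23.2. Every treated library was below both DMSO libraries, by the widest margin with compound 5 and by a narrow one with compound 6. The log2-fold change for compound 5 was -0.53 ± 0.15 (95% interval -0.87 to -0.20), with an adjusted p of 0.057 that misses the threshold. That value passed with upper-quartile factors (0.040), without a filter on low counts (0.025), with at least 10 counts in every library (0.049) and without compound 5 replicate 2 (0.045). It was -0.31 ± 0.15 for compound 4 (adjusted p = 0.21), -0.16 ± 0.15 for compound 6 (adjusted p = 0.60) and -0.34 ± 0.12 for the mean of the 3 compounds (adjusted p = 0.10).

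UROD (chromosome 1, 45012147 to 45015575, plus strand), which removes carboxyl groups from uroporphyrinogen, had the highest level per length of the 9 in the DMSO libraries. It read 81.1 and 90.4 CPM with DMSO, 81.9 and 92.7 with compound 4, 61.4 and 87.9 with compound 5 and 79.2 and 84.1 with compound 6. Each treated group overlapped DMSO, and the low value of compound 5 came from replicate 1 alone. Log2-fold changes were 0.03 ± 0.16 for compound 4 (adjusted p = 0.94), -0.20 ± 0.16 for compound 5 (adjusted p = 0.45) and -0.07 ± 0.16 for compound 6 (adjusted p = 0.85). Without compound 5 replicate 1 the compound 5 value was 0.02.

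CPOX (chromosome 3, 98579446 to 98593723, minus strand) oxidises coproporphyrinogen. The values were 67.4 and 89.9 CPM with DMSO, 69.7 and 55.1 with compound 4, 63.1 and 75.9 with compound 5 and 62.6 and 55.7 with compound 6. Only compound 6 had both libraries below DMSO, whose own libraries lay further apart than those of any treated group. The differences were -0.34 ± 0.17 for compound 4 (adjusted p = 0.24), -0.18 ± 0.17 for compound 5 (adjusted p = 0.52) and -0.41 ± 0.17 for compound 6 (adjusted p = 0.24), all on the log2 scale. Leaving out 1 library moved them between -0.53 and -0.11 for compound 4 and between -0.62 and -0.19 for compound 6.

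PPOX (chromosome 1, 161166410 to 161178013, plus strand) oxidises protoporphyrinogen and was the lowest of the 9 genes per length. It read 11.3 and 7.54 CPM with DMSO, 11.2 and 11.9 with compound 4, 8.23 and 10.5 with compound 5 and 11.7 and 10.6 with compound 6. Each treated group overlapped DMSO, whose libraries again lay furthest apart. The log2-fold changes of 0.31 ± 0.22, 0.01 ± 0.22 and 0.25 ± 0.22 for compounds 4, 5 and 6 had adjusted p of 0.40, 0.98 and 0.58. Leaving out 1 library moved the compound 4 value between 0.04 and 0.61. PPOX overlaps B4GALT3 on the opposite strand by 6659 bases, and B4GALT3 had 4879 counts over the 8 libraries beside 991 for PPOX. The library kit keeps strand, but whether the counting used it is not given in the sources used here, so PPOX is the least certain of the 9.

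FECH (chromosome 18, 57548283 to 57586772, minus strand) inserts iron into protoporphyrin to give heme. Its levels of 30.5 and 26.4 CPM with DMSO, 33.1 and 29.9 with compound 4, 25.0 and 27.0 with compound 5 and 29.6 and 29.1 with compound 6 had the narrowest range of the 9 genes. The highest library stood 1.32 times above the lowest, and all treated groups overlapped DMSO. Log2-fold changes were 0.15 ± 0.13 (adjusted p = 0.51), -0.13 ± 0.13 (adjusted p = 0.55) and 0.05 ± 0.13 (adjusted p = 0.88) for compounds 4, 5 and 6.

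BLVRA (chromosome 7, 43758680 to 43807342, plus strand), the main biliverdin reductase of adult liver, rose with compound 4. It read 59.5 and 55.3 CPM with DMSO, 82.8 and 74.6 with compound 4, 56.8 and 56.9 with compound 5 and 72.4 and 72.6 with compound 6. Libraries of compounds 4 and 6 lay above those of DMSO without overlap, and compound 5 lay within the DMSO range. The compound 4 level was 1.37-fold that of DMSO, a log2-fold change of 0.45 ± 0.11 (95% interval 0.22 to 0.69, adjusted p = 0.029, higher in 2 of 2 libraries). The call held in the 7 alternatives that left out no single library, with adjusted p of 0.023 to 0.046. It was lost without DMSO replicate 1 (0.099), DMSO replicate 2 (0.24), compound 4 replicate 1 (0.11), compound 4 replicate 2 (0.082), compound 6 replicate 1 (0.058) or compound 6 replicate 2 (0.054), while the log2-fold change stayed between 0.37 and 0.53. Compound 6 gave 0.34 ± 0.11 (95% interval 0.10 to 0.58, adjusted p = 0.15) and compound 5 gave -0.01 ± 0.11 (95% interval -0.25 to 0.23, adjusted p = 0.95).

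BLVRB (chromosome 19, 40447765 to 40465840, minus strand) encodes the reductase best known from fetal liver and red cells, which also reduces flavins. Its levels were 11.8 and 12.3 CPM with DMSO, 20.2 and 15.1 with compound 4, 13.3 and 9.84 with compound 5 and 19.0 and 14.7 with compound 6. The libraries of compounds 4 and 6 were all above DMSO, and those of compound 5 lay on either side of it. The log2-fold changes of BLVRB were 0.55 ± 0.21 for compound 4 (95% interval 0.07 to 1.02, adjusted p = 0.13) and 0.48 ± 0.21 for compound 6 (95% interval 0.0041 to 0.96, adjusted p = 0.27). Neither passed the threshold at 115 to 215 counts per library, and leaving out 1 library moved them between 0.31 and 0.74 for compound 4 and between 0.27 and 0.66 for compound 6. Compound 5 gave -0.07 ± 0.21 (adjusted p = 0.85).

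**Figure D2:**
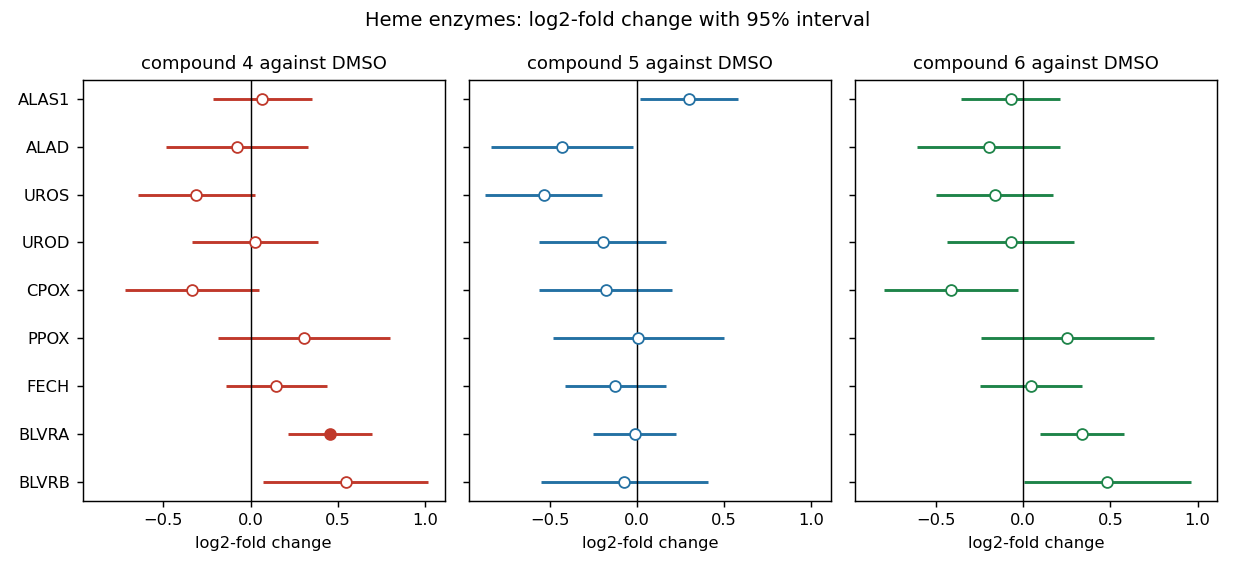
Log2-fold change against DMSO (horizontal axes) of the 9 heme genes for compounds 4, 5 and 6, with bars for the 95% interval from edgeR (2 libraries per group). Filled points have an adjusted p under 0.05 and open points do not, and the 1 filled point is BLVRA with compound 4 at 0.45.

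None of the 9 genes was called between compounds, where each pair was compared over all 13400 genes with 3 differences for each of the 9 genes. Between compounds 4 and 6, which differ in the tert-butyl and cyclohexyl groups, edgeR called 0.0% of all genes, with 945 at an unadjusted p under 0.05 and 59 called by the DESeq2 Wald test. The 9 differences ran from -0.15 for UROS to 0.14 for ALAS1 on the log2 scale, with no unadjusted p under 0.05 and none called by DESeq2. Their 95% intervals reached from -0.49 to 0.54, so differences within these bounds remain possible. For BLVRA the interval was -0.12 to 0.35 and for BLVRB it was -0.40 to 0.53.

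Compound 5 differs from both others in its bridge and in carrying tert-butyl groups only. Against compound 5, compound 4 was higher by 0.47 ± 0.11 in BLVRA (95% interval 0.23 to 0.70, adjusted p = 0.10) and by 0.62 ± 0.21 in BLVRB (0.15 to 1.08, adjusted p = 0.20). These were the 2 genes of the 9 with an unadjusted p under 0.05 in that comparison, in which 0.313% of all genes were called (42 genes, or 128 with the replicate block) and DESeq2 called 0 of the 9. The BLVRA difference passed the threshold only in the fit without a filter on low counts (0.048), among the alternatives that kept all libraries or left out 1.

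Against compound 5, compound 6 was lower in ALAS1 by a log2 difference of -0.37 ± 0.13 (95% interval -0.65 to -0.09, adjusted p = 0.17). It was higher in BLVRA by 0.35 ± 0.11 (0.11 to 0.59, adjusted p = 0.13), in BLVRB by 0.55 ± 0.21 (0.08 to 1.03, adjusted p = 0.21) and in UROS by 0.37 ± 0.15 (0.03 to 0.71, adjusted p = 0.24). These 4 genes had an unadjusted p under 0.05, none was called by edgeR, where the share of all genes was 1.03% (138 genes, or 269 with the replicate block), and DESeq2 called 0. The other 5 genes had intervals that included 0.

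**Figure D3:**
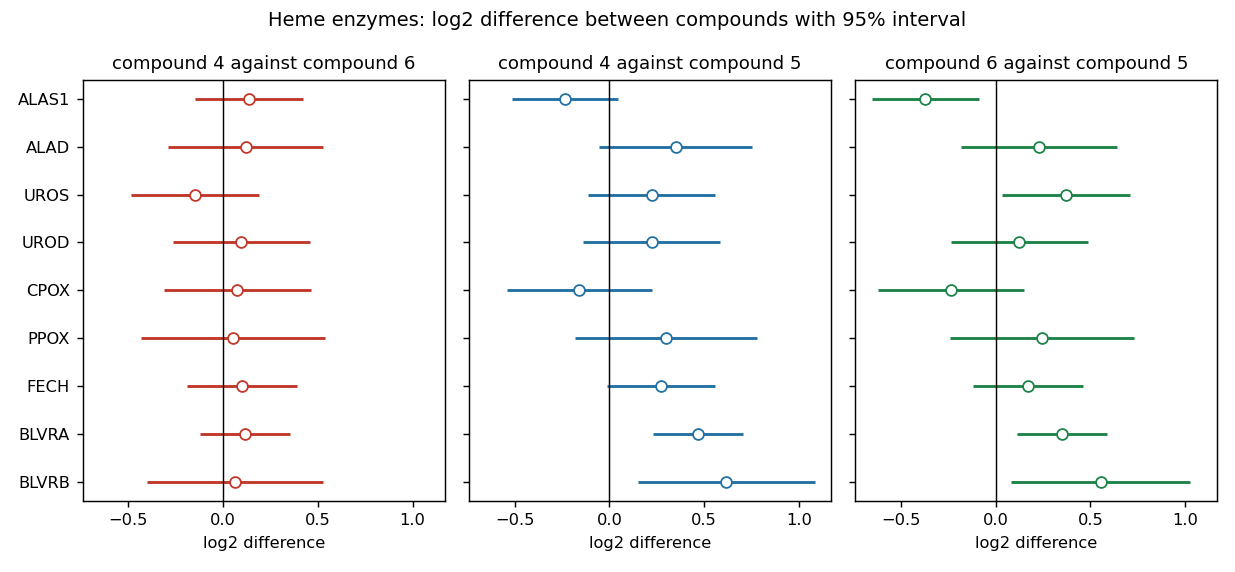
Log2 differences (horizontal axes) of the 9 heme genes between compounds 4 and 6, 4 and 5, and 6 and 5, with bars for the 95% interval from edgeR (2 libraries per group). All points are open, since no difference had an adjusted p under 0.05, and the largest is BLVRB between compounds 4 and 5 at 0.62.

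The heme oxygenases, which supply the substrate of the reductases, stood as follows. HMOX1, the inducible form, read 107 and 95.2 CPM with DMSO, 181 and 137 with compound 4, 109 and 109 with compound 5 and 108 and 120 with compound 6. All treated libraries were above both DMSO libraries, those of compound 4 by the most. HMOX1 rose with compound 4 by 0.65 ± 0.14 on the log2 scale (adjusted p = 0.022), a call lost without DMSO replicate 1 (0.075), DMSO replicate 2 (0.20) or compound 4 replicate 1 (0.086). It changed by 0.11 ± 0.14 with compound 5 (adjusted p = 0.64) and 0.17 ± 0.14 with compound 6 (adjusted p = 0.54), and compounds 4 and 6 differed by 0.48 (95% interval 0.16 to 0.79, adjusted p = 0.50). HMOX2, the constitutive form, lay between 39.5 and 52.4 CPM in all libraries and had log2-fold changes of 0.13, 0.08 and -0.09 for compounds 4, 5 and 6 (adjusted p of 0.62, 0.76 and 0.77).

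Of the 9 tested genes of heme breakdown and bilirubin disposal, 3 rose and 1 fell with compound 4, 2 rose and 1 fell with compound 5, and 2 rose with compound 6, beside the shares of all genes called of 9.51%, 8.3% and 0.575%. The list had median log2-fold changes of 0.13, 0.08 and 0.16, beside 0.01, 0.00 and 0.02 over all genes. The canalicular exporter ABCC2, which secretes conjugated bilirubin, read 584 and 565 CPM with DMSO, 979 and 1197 with compound 4, 1220 and 1016 with compound 5 and 962 and 1062 with compound 6. It rose by 0.92 ± 0.13 (adjusted p = 0.0052), 0.96 ± 0.13 (0.0056) and 0.82 ± 0.13 (0.042) on the log2 scale. ABCC3, the basolateral exporter of such conjugates, read 63.0 and 51.2 CPM with DMSO, 130 and 140 with compound 4, 56.6 and 52.0 with compound 5 and 133 and 135 with compound 6. All ABCC3 libraries of compounds 4 and 6 lay above DMSO and those of compound 5 within its range, with log2-fold changes of 1.25 ± 0.12 (adjusted p = 0.0016) and 1.24 ± 0.12 (0.0068) for compounds 4 and 6, while compound 5 gave -0.07 ± 0.12 (0.72). ABCC3 also differed between compounds, by 1.32 ± 0.12 for compound 4 against 5 (adjusted p = 0.0035) and 1.31 ± 0.12 for compound 6 against 5 (0.0039), and by 0.01 for compound 4 against 6 (95% interval -0.26 to 0.28, adjusted p = 0.99). With compound 5 the organic anion carriers SLCO2B1, which fell by 0.77 (adjusted p = 0.021), and SLCO1B3, at 1.09 ± 0.29 (adjusted p = 0.048), were called. The SLCO1B3 call did not hold in all alternatives that left out no single library, where its adjusted p reached 0.079. The gene that fell with compound 4 was GSTA1, a glutathione transferase known as a bilirubin-binding protein, with 2.77 and 4.94 CPM in the DMSO libraries and 1.13 and 1.29 with compound 4, and it is named here after its values were seen. Its log2-fold change was -1.67 ± 0.46 (adjusted p = 0.0496), and the call was lost with DESeq2 (0.055) and without DMSO replicate 1 (0.068), DMSO replicate 2 (0.36), compound 4 replicate 1 (0.14), compound 4 replicate 2 (0.19), compound 6 replicate 1 (0.068) or compound 6 replicate 2 (0.068). Leaving out 1 library ended the ABCC2 calls without DMSO replicate 2 (0.079 for compound 4, 0.074 for compound 5, 0.44 for compound 6) and, for some compounds, without DMSO replicate 1 (0.059 for compound 5, 0.15 for compound 6), compound 6 replicate 1 (0.056) or compound 6 replicate 2 (0.32). The ABCC3 call of compound 6 was lost without DMSO replicate 2 (0.13) or compound 6 replicate 2 (0.082), and its difference between compounds 6 and 5 without compound 6 replicate 1 (0.085). SLCO1B3 lost its call without any one of the 4 libraries compared (0.084 to 0.21), and SLCO2B1 without DMSO replicate 1 (0.12), DMSO replicate 2 (0.12) or compound 5 replicate 1 (0.13).

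Of the 19 genes of heme and porphyrin transport, 2 fell with compound 4, 1 fell with compound 5 and none was called by edgeR with compound 6, where 5 had an unadjusted p under 0.05 and DESeq2 called 1. The shares called were 10.5% and 5.26% with compounds 4 and 5, beside 9.51% and 8.3% of all genes, and the replicate block called 4 with compound 4. The median log2-fold changes were 0.07, -0.04 and 0.04. FLVCR1, named as a heme exporter, read 49.5 and 53.5 CPM with DMSO, 31.8 and 34.1 with compound 4, 37.6 and 35.2 with compound 5 and 39.8 and 40.2 with compound 6. Every treated library was below DMSO. The log2-fold change of FLVCR1 was -0.64 ± 0.12 for compound 4 (adjusted p = 0.012), -0.50 ± 0.11 for compound 5 (0.031) and -0.37 ± 0.12 for compound 6 (0.15). PGRMC1, a membrane heme-binding partner of FECH and of cytochromes P450, fell by 0.65 with compound 4 (adjusted p = 0.019). It read 170 and 174 CPM with DMSO and 123 and 95.4 with compound 4. With compound 5 it read 116 and 130 and with compound 6 it read 125 and 112, and DESeq2 called it with both. Without DMSO replicate 2 neither call of compound 4 remained (0.14 for FLVCR1, 0.15 for PGRMC1), nor without compound 4 replicate 2 (0.064 and 0.12), and PGRMC1 also lost its call without DMSO replicate 1 (0.081). The FLVCR1 call of compound 5 was lost without any one of the libraries compared (0.061 to 0.21) and when only those were fitted (0.060).

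Among 11 genes that supply glycine and succinyl-CoA, the substrates of ALAS1, 1 rose and 1 fell with compound 4, 1 rose with compound 5 and none was called by edgeR with compound 6, where 2 had an unadjusted p under 0.05 and DESeq2 called 1. The shares called were 18.2% and 9.09% with compounds 4 and 5, beside 9.51% and 8.3% of all genes, and the replicate block called 2 with compound 5. The median log2-fold changes were -0.05, -0.05 and -0.03. The gene called by DESeq2 with compound 6 was the mitochondrial serine hydroxymethyltransferase SHMT2, which makes glycine. It read 290 and 268 CPM with DMSO and 372 and 421 with compound 4. Compound 5 gave 443 and 393 and compound 6 gave 363 and 437. In edgeR, SHMT2 rose by 0.51 ± 0.12 with compound 4 (adjusted p = 0.034) and 0.58 ± 0.12 with compound 5 (0.024). The cytosolic form SHMT1 fell by 0.66 with compound 4 (adjusted p = 0.026). These calls were lost without DMSO replicate 1 (0.10, 0.11 and 0.067) or DMSO replicate 2 (0.25, 0.18 and 0.22), those of compound 4 without its replicate 2 (0.19 for SHMT2, 0.16 for SHMT1), that of SHMT2 without compound 4 replicate 1 (0.0501) and that of compound 5 without its replicate 1 (0.15). None of the 17 genes of mitochondrial iron and iron-sulfur cluster supply was called in edgeR with compound 4, 5 or 6, while 4, 5 and 3 had an unadjusted p under 0.05 and DESeq2 called 0, 2 and 0. The replicate block called 2 with compound 5. Their median log2-fold changes were -0.03, -0.12 and -0.09.

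**Figure D4:**
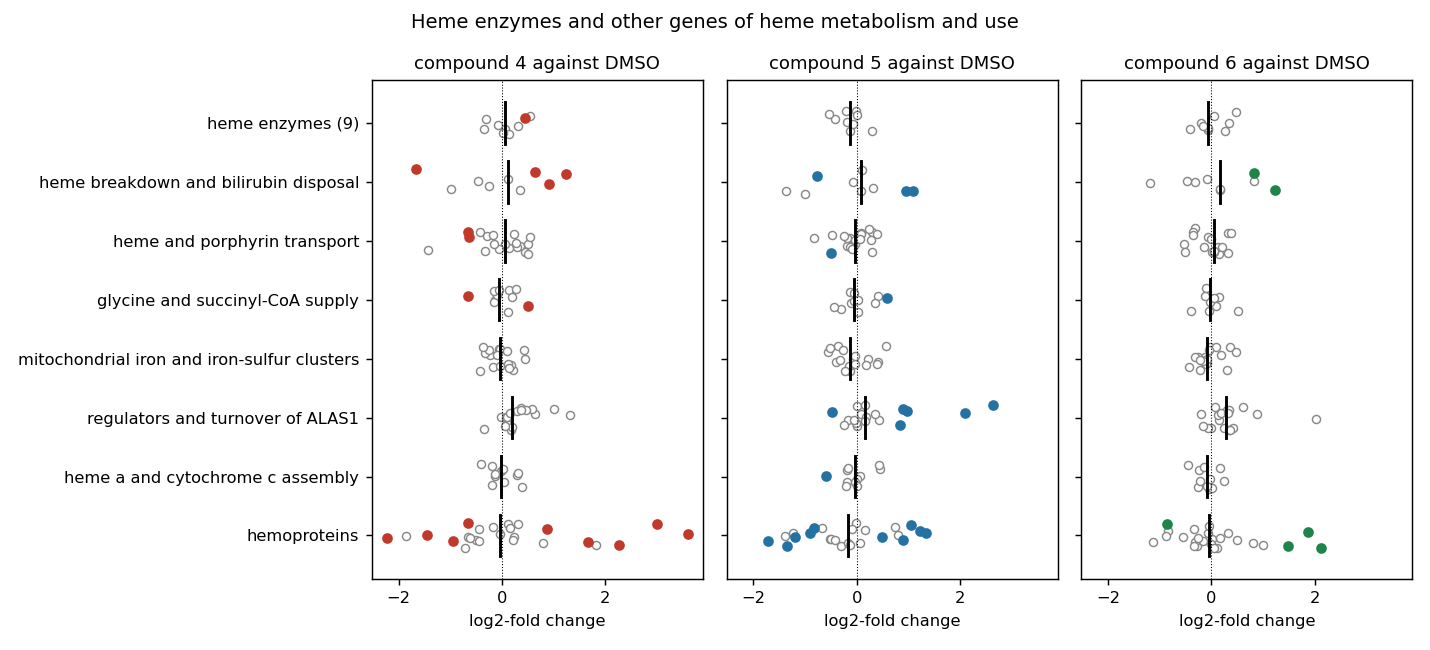
Log2-fold changes against DMSO (horizontal axes) of the 9 heme genes and of the tested genes of 7 further lists of heme metabolism and use, for compounds 4, 5 and 6. Each point is a gene, filled when its adjusted p is under 0.05, and black bars are the median of each list. The 9 heme genes span -0.53 to 0.55, while single hemoproteins reach 3.60.

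Of 18 tested genes that regulate ALAS1 or its turnover, none was called by edgeR with compound 4 or 6, while 5 rose and 1 fell with compound 5, which is 33.3% of the list beside 8.3% of all genes. With compounds 4 and 6, beside 9.51% and 0.575% of all genes, 8 and 7 had an unadjusted p under 0.05, DESeq2 called 3 and 2, and the replicate block called 2 and 0. The median log2-fold changes were 0.19, 0.16 and 0.27 for compounds 4, 5 and 6. NR1D1, the heme-binding circadian repressor, read 15.1 and 13.5 CPM with DMSO and 80.8 and 41.3 with compound 5. It read 27.5 and 29.7 with compound 4 and 23.1 and 29.2 with compound 6. EGR1, an immediate early transcription factor, read 6.35 and 4.52 CPM with DMSO and 45.0 and 22.8 with compound 5. It read 14.4 and 12.5 with compound 4 and 15.2 and 28.5 with compound 6. Every treated library lay above both DMSO libraries for each gene. With compound 5, NR1D1 rose by 2.09 ± 0.28 (adjusted p = 0.0056) and EGR1 by 2.64 ± 0.39 (0.0075) on the log2 scale. PPARGC1A, a coactivator that raises ALAS1 in fasting and which is named here after its values were seen, rose by 0.89 ± 0.18 (adjusted p = 0.022), and the remaining genes that rose were the repressors NR1D2 (0.98 ± 0.22, adjusted p = 0.028) and BACH1 (0.83 ± 0.20, adjusted p = 0.038), likewise named after their values were seen. NFE2L1, a stress-responsive transcription factor, fell by 0.48 (adjusted p = 0.020). All 4 calls were lost without DMSO replicate 1 (0.054, 0.059, 0.087 and 0.13) or DMSO replicate 2 (0.074, 0.090, 0.17 and 0.12), and those of PPARGC1A (0.11) and NFE2L1 (0.098) without compound 5 replicate 1. PPARGC1A also missed the threshold when only the compared libraries were fitted (0.052). The calls of NR1D2 and BACH1 were lost in that fit too (0.054 and 0.073) and without DMSO replicate 1 (0.11 and 0.10), DMSO replicate 2 (0.19 and 0.24) or compound 5 replicate 1 (0.14 and 0.21). BACH1 also lost its call with upper-quartile factors (0.054), without compound 6 replicate 1 (0.060) and without compound 6 replicate 2 (0.056). With compound 6, EGR1 stood at 2.02 ± 0.40 and missed the threshold (adjusted p = 0.054). The DESeq2 Wald test called EGR1 and NR1D1 with compounds 4 and 6, and PPARGC1A with compound 4.

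Of the 11 genes of heme a synthesis and of cytochromes b and c, 1 was called by edgeR with compound 5, which is 9.09% of the list beside 8.3% of all genes. It was CYB5B, the cytochrome b5 of the outer mitochondrial membrane, which fell by 0.59 (adjusted p = 0.023). It read 184 and 202 CPM with DMSO and 114 and 142 with compound 5. With compound 4 it read 153 and 140 and with compound 6 it read 138 and 144, so every treated library was below DMSO. With compounds 4 and 6 edgeR called 0, with 2 and 1 genes at an unadjusted p under 0.05. DESeq2 called 1 gene with each of these compounds, which was CYB5B again. The median log2-fold changes of the list were -0.01, -0.03 and -0.09. Among the single compounds, edgeR called CYB5B with compound 5 only. That call was lost without DMSO replicate 1 (0.090), DMSO replicate 2 (0.18) or compound 5 replicate 1 (0.15).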

How the data were processed

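RNA of 8 libraries, 2 in each of 4 groups, was prepared with a directional kit and sequenced in pairs. The replicate 1 libraries of DMSO and compound 4 are named as 2 merged runs. The authors checked the reads with FastQC 0.12.0, estimated transcript abundance with Salmon 1.5.0 on GENCODE 38 (GRCh38), summarised it per gene and deposited whole-number counts, so reads shared by similar transcripts were assigned by a model. Their own fit used DESeq2 1.38.3, as the submitters' processing notes list it. Gene positions come from GENCODE 29, a release of the same build.

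The deposited counts were scaled by the trimmed mean of M-values and filtered with filterByExpr at a minimum count of 10, which left 13400 of 60230 genes. All 8 libraries were fitted with the quasi-likelihood test of edgeR 4.0.16 in R 4.3.3, and 7 comparisons were made, each with a Benjamini-Hochberg adjustment over all genes. Errors (SE) and 95% intervals come from that fit, with a common biological coefficient of variation of 0.121. The script was tested on simulated data. Library totals of 9791659 to 17814595 set the precision of low genes. The likeness of genes was the Pearson correlation of log2(CPM + 0.5).

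The day numbers pair the libraries by their labels. Correlations of the replicate differences across genes lay between -0.16 and 0.30 over 6 pairs of groups. Alternatives were the DESeq2 1.42.0 Wald test, a replicate block, other scaling factors, other filters on low counts, a fit of only the libraries compared, and leaving out each library. The genes and lists were chosen with earlier results of these data known. Named were all 9 genes, HMOX1, HMOX2, CYP2C19 and, in each further list and comparison with DMSO, at most the 3 called genes with the smallest adjusted p. Genes of these lists named outside this rule are said to be named after their values were seen. Cell type markers named singly also fall outside the rule, and CD68 was named after its values were seen. Replicates differed by more than sampling noise.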

Additional observations from a re-analysis of the deposited data

How the results depend on the processing

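The replicate block changed no call of the 9 genes or of the other genes given as called, CYP1A1 with compound 5 excepted (adjusted p = 0.048 without and 0.051 with the block), and the number of the 9 genes called was the same under it in each comparison (1 for compound 4 against DMSO and 0 in the others). For compound 4 against DMSO, leaving out 1 library gave 0 to 1 genes called. For compound 5 against DMSO, 1 gene (UROS) was called with upper-quartile factors, with no filter on low counts and with at least 10 counts in every library, and 0 to 1 when 1 library was left out. For compound 4 against compound 5, 1 gene (BLVRA) was called with no filter. The causes were not tested. Some directions turned, all of values that had not passed the threshold. UROD with compound 4 was -0.0078 with upper-quartile factors. PPOX with compound 5 was -0.0073 with DESeq2, -0.0029 with RLE factors, -0.087 with upper-quartile factors and -0.010 with at least 10 counts in every library. HMOX2 with compound 5 was -0.020 with upper-quartile factors. Leaving out 1 library also turned the direction of log2-fold changes with compound 4 for ALAD (-0.22 to 0.047), UROD (-0.067 to 0.11) and HMOX2 (-0.048 to 0.27). With compound 5 these were UROD (-0.48 to 0.025), CPOX (-0.38 to 0.050), PPOX (-0.26 to 0.31), BLVRA (-0.063 to 0.030), BLVRB (-0.30 to 0.14) and HMOX2 (-0.068 to 0.20). With compound 6 they were ALAD (-0.49 to 0.043), UROD (-0.16 to 0.013), PPOX (-0.014 to 0.55), FECH (-0.054 to 0.14) and CYP2C19 (-0.29 to 0.45). Of 780 alternative values for 70 gene results, 674 kept their direction and side of the threshold, 75 no longer passed it, 7 newly passed it and 24 turned. The number of all genes called with compound 6 depended strongly on the fit: 77 in edgeR, 547 with DESeq2, 47 with RLE factors, 198 with at least 10 counts in every library, 1355 with no filter and 1023 when only the compared libraries were fitted. No filter also gave 2383 genes for compound 4 and 2431 for compound 5, beside 1275 and 1112. Between compounds 4 and 5, 42 genes became 208 with DESeq2, 128 with the replicate block, 65 with at least 10 counts, 750 with no filter and 10 with only the compared libraries. Between compounds 6 and 5, 138 became 371, 269, 207, 990 and 49 in the same order, and between 4 and 6, 0 became 59, 1, 5 and 259 and stayed at 0 in the last. Counts of 90 to 215 per library limit PPOX and BLVRB.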

Other observations

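Of 39 listed genes for hemoproteins and proteins with a heme-binding domain, 25 were tested. The list also holds POR, the reductase of cytochromes P450, which is a flavoprotein and binds no heme. With compound 4, 5 rose and 4 fell, with compound 5, 5 rose and 5 fell, and with compound 6, 3 rose and 1 fell, beside 9.51%, 8.3% and 0.575% of all genes called. Their median log2-fold changes were -0.04, -0.17 and -0.05. CYP1A1, a P450 of aromatic hydrocarbon metabolism, read 5.94 and 4.69 CPM with DMSO, 59.5 and 69.1 with compound 4, 10.8 and 9.05 with compound 5 and 15.5 and 23.2 with compound 6. It rose by 3.60 ± 0.22 (SE) on the log2 scale with compound 4 (edgeR, adjusted p = 8.8e-05) and 1.87 ± 0.23 with compound 6 (0.023). With compound 5 CYP1A1 rose by 0.90 ± 0.24 (edgeR, adjusted p = 0.048). That call was lost with upper-quartile factors (0.058), with only the compared libraries (0.061) and with the replicate block (0.051). Leaving out 1 library moved the compound 5 value between 0.73 and 1.06. CYP24A1, the vitamin D hydroxylase, read 133 and 87.3 CPM with DMSO, 853 and 920 with compound 4, 316 and 244 with compound 5 and 465 and 489 with compound 6. Its log2-fold changes were 3.01 ± 0.20 (adjusted p = 0.00012), 1.35 ± 0.19 (0.0062) and 2.12 ± 0.19 (0.0056).

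CYP51A1, the lanosterol demethylase of cholesterol synthesis, fell from 266 and 219 CPM with DMSO to 97.3 and 79.2 with compound 4, 107 and 106 with compound 5 and 136 and 132 with compound 6. The log2-fold changes were -1.46 ± 0.13 (adjusted p = 0.0013), -1.19 ± 0.13 (0.0031) and -0.86 ± 0.13 (0.038). CYP2S1, an extrahepatic P450, read 26.9 and 21.0 CPM with DMSO, 69.5 and 82.3 with compound 4, 61.99 and 49.7 with compound 5 and 59.7 and 73.4 with compound 6. It rose by 1.67 ± 0.18 (adjusted p = 0.0022), 1.22 ± 0.18 (0.0071) and 1.48 ± 0.18 (0.023), the call of compound 5 being lost without DMSO replicate 2 (0.087). CYP19A1, the aromatase, fell by 1.71 with compound 5 (adjusted p = 0.0070). Calls were lost for CYP1A1 with compound 6 without DMSO replicate 1 (0.093), DMSO replicate 2 (0.33) or compound 6 replicate 2 (0.12), and for CYP2S1 with compound 6 without the same libraries (0.077, 0.28 and 0.16). The CYP51A1 call of compound 6 was lost without DMSO replicate 1 (0.15), DMSO replicate 2 (0.17), compound 6 replicate 1 (0.073) or compound 6 replicate 2 (0.32). The CYP24A1 call of compound 5 was lost without DMSO replicate 2 (0.055), and that of CYP19A1 without DMSO replicate 1 (0.064) or DMSO replicate 2 (0.055).

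Of all tested genes, the levels most like those of ALAS1 over the 8 libraries belonged to GDI2, LSR and SLC35C1, with Pearson r of 0.97, 0.96 and 0.96 on log2(CPM + 0.5). For BLVRB they were CNTNAP3, HPRT1 and the gene ENSG00000254363, with r of 0.99, 0.98 and 0.97. CNTNAP3 and ENSG00000254363 were low, with group means of 2.64 to 5.03 and 0.56 to 1.55 CPM, beside the 0.5 added to each CPM. HPRT1, a purine salvage enzyme, had mean levels of 29.9, 37.0, 28.97 and 35.6 CPM with DMSO and compounds 4, 5 and 6. The genes were picked as the highest of 13400 and share their libraries, so these values are descriptions.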
